A study of Mus musculus with 7 samples.

Results

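Each of 10 core circadian clock genes had at least 1 region of open chromatin that was shared by all 7 libraries of mouse pancreatic alpha, beta, and delta cells. At the stricter peak threshold used below (−log10 q of at least 2), this held for all but Per1 and Nr1d1. The share of other genes that meet the same rule is not given here, so the count does not set clock genes apart. The 10 genes are Arntl, Clock, and Npas2, which encode the activators, Per1, Per2, Per3, Cry1, and Cry2, which encode the repressors, and Nr1d1 and Nr1d2, which encode the REV-ERB receptors. They were chosen by name from 21938 protein-coding genes, and a locus was defined as the gene body of the GENCODE annotation with 10 kb on either side. Of 1190565 distinct peaks deposited for the 7 libraries, 484 overlapped these loci, between 38 in beta replicate 2 and 142 in beta replicate 1.

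ATAC-Seq, in which a transposase inserts sequencing adapters into accessible DNA, was performed on FACS-sorted alpha (n = 2), beta (n = 3), and delta (n = 2) cells of healthy mice. All libraries came from mice that carried mIns1-H2b-mCherry, a beta cell reporter under the insulin 1 promoter, and Rosa-LSL-YFP, a reporter switched on by Cre. The mice also carried Gcg-Cre, active in glucagon-expressing cells and thus a mark of alpha cells, or Sst-Cre, active in somatostatin-expressing cells and thus a mark of delta cells. Animals were pooled by sex before the sort. The labels do not say which Cre line each beta library came from, and the time of day of collection, on which clock gene activity depends, is not given in the sources used here. The study's sorting gates left out cells positive for both mCherry and YFP. The labels call the libraries biological replicates and do not give the animals or the sex behind each one. The study's supplement lists a sex for each replicate, with both sexes in every cell type. Its names are not tied to these libraries by the labels alone, and sex was not used in the tests. A further beta replicate was removed by the study for a low fraction of reads in peaks. The study describes cell types taken from the same animals, so beta libraries may share animals with alpha or delta libraries, and the tests treat the 7 libraries as independent. The p-values then measure only the spread between these libraries.

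The mammalian clock is a loop of transcription and translation. BMAL1, the product of Arntl, pairs with CLOCK or with its relative NPAS2 and binds E-box sequences to switch on the Per and Cry genes, whose proteins return to the nucleus and shut the activators down. The second loop runs through Nr1d1 and Nr1d2, which are themselves E-box targets and whose REV-ERB proteins compete with ROR receptors at RORE sequences to repress Arntl. D-box factors such as DBP and the cAMP responsive element CRE tie further inputs to the same genes. Islet cells are known to hold such a clock, and it takes part in the daily timing of hormone release.

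The sequences under the open regions are shown first, because the clock's own binding letters lie in them. Each region below is a 300-base window around the summit of a peak found in all 7 libraries, in the mm10 (GRCm38) build, read 5′ to 3′ on the strand of the gene. The first pair lies at the annotated transcription start site (TSS) and the third in the Nr1d1 intron next to it. Capitals mark an E-box (CACGTG), an E′-box (CACGTT), or a D-box (TTANGTAA), on either strand. These windows were chosen after their values were seen.
Per1 TSS peak, chr11:69094891-69095190, plus strand: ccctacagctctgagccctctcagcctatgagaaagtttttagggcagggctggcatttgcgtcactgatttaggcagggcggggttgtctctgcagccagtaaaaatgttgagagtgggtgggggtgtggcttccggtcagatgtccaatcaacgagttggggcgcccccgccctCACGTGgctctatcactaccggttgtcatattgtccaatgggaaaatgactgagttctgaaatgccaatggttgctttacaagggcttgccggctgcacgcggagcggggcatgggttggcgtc
Per2 TSS peak, chr1:91459239-91459538, minus strand: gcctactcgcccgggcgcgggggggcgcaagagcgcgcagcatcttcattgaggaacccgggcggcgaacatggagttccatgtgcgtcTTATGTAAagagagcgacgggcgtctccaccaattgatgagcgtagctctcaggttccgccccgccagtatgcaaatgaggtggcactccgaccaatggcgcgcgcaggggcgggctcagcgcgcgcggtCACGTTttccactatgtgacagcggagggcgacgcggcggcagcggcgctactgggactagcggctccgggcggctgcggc
Nr1d1 intron peak, chr11:98773814-98774113, minus strand: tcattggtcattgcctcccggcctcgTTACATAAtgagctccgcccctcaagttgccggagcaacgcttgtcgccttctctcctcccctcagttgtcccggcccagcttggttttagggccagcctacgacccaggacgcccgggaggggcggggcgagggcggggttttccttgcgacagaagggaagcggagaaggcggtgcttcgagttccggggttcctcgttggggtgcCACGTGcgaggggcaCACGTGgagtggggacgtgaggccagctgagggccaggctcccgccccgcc

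Every capitalised match in these 3 windows lay inside a peak in all 7 libraries. The Per1 window carried 1 E-box, the Per2 window 1 E′-box and 1 D-box, and the Nr1d1 window 2 E-boxes and 1 D-box. Per2 also had a CG-rich window, with 38 CG pairs, more than 95.1% of the windows of regions found in at least 4 libraries. The Nr1d1 window held 25 and the Per1 window 13.

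Promoters as RefSeq defines them, running from 250 bases before to 50 bases after a start on GRCm38.p6, were given for 9 of the 10 genes, all but Per2. The 3 with the most motif kinds or matches follow, with an E-box, an E′-box, a D-box, or the core of a RORE (AGGTCA) in capitals.
Cry1 promoter, chr10:85185005-85185304, minus strand: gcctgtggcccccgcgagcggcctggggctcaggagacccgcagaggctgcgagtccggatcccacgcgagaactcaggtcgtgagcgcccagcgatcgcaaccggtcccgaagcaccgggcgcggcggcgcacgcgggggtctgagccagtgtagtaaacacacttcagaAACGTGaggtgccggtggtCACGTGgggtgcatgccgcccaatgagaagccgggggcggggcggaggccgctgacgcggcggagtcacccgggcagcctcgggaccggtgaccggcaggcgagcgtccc
Per1 promoter at an inner start, chr11:69098699-69098998, plus strand: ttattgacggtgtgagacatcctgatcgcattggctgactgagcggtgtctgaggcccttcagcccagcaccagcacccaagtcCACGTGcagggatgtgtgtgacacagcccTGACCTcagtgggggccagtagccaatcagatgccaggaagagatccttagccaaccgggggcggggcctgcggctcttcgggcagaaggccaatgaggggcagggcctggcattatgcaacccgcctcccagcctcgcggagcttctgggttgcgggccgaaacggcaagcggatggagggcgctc
Per3 promoter, chr4:151044616-151044915, minus strand: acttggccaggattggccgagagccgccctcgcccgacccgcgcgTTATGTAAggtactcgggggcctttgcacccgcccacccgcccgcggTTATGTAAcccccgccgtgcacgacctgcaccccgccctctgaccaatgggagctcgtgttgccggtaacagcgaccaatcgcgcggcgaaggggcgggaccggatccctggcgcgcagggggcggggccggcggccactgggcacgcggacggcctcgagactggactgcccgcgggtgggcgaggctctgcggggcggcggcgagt

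The Cry1 promoter held an E′-box and an E-box, and the Per3 promoter 2 D-boxes, and all of these matches lay under a peak in all 7 libraries. The Per1 promoter belongs to an inner start 3732 bp from the first, and its E-box and RORE core were under a peak in 6 libraries, with none in beta replicate 1. Of the 9 genes, 2 had an E-box in a promoter, against 7.15% of 32851 promoters of the table. An E′-box was found for 3 genes (4.68% of promoters), a D-box for 1 (2.32%), a RORE core for 4 (16.3%), and a CRE (TGACGTCA) for 0 (1.79%). Several genes have more than 1 promoter in the table, so a gene has more chances of a match than a promoter. No motif of these contains another. The same letters were counted in the 38 windows around the summits of regions found in at least 4 libraries. An E-box was present in 6 of them (15.8%) and in 6.58% of 48422 such windows genome-wide. These 6 lay at Npas2, Per1, and Nr1d1 only, with more than 1 each at Per1 and Nr1d1. A D-box was present in 3 (7.89%, and 2.79% genome-wide) and an E′-box in 3 (7.89% and 4.96%). For a RORE core it was 13 (34.2% and 16.9%), and for a CRE 1 (2.63% and 1.5%). Some of the 38 windows lie at the starts of neighbouring genes. A match of letters is a description of the sequence and does not show binding.

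Peaks had been called in each library on its own, so a peak's strength was read as its rank in its own list, ordered by p-value with 1 as the strongest. A TSS peak was the strongest peak within 1 kb of the annotated 5′ end. The median number of distinct peaks per library was 111961, with a range of 75860 to 518503, and beta replicate 1 was the longest list by far. Peaks at a −log10 q of at least 2 numbered 25903 to 52057 per library, fewest in the 3 beta libraries (25903, 32047, and 38058), against 41683 to 52057 in alpha and delta cells. All 3 beta lists were thus shorter at this threshold, and the part of this in any difference below was not tested. The lane in the deposited names was 6 for both alpha libraries and beta replicate 1 and 7 for the other libraries, so lane and the alpha to delta comparison cannot be told apart. The deposited names of the 3 beta libraries carry the name of another cell type than their labels, and the labels were followed.

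The labelled cell types were checked at the TSSs of marker genes. All 8 alpha markers had a TSS peak in both alpha libraries, against 5 of 8 in at least 2 beta libraries and 7 of 8 in both delta libraries. Of 5 delta markers, 5 had one in both delta libraries, 1 in at least 2 beta libraries, and 4 in both alpha libraries. The 9 beta markers did not separate the types, with 6 in beta, 5 in alpha, and 6 in delta cells. Gcg had a TSS peak in both alpha libraries and in delta replicate 2, Ins1 in all 7 libraries, Ins2 in beta replicate 3 only, and Sst in both delta libraries and beta replicate 1. The Sst peak was strongest in the library labelled beta replicate 1, at rank 22362 and the only one with a −log10 q of at least 2, against ranks of 130960 and 64769 in the delta libraries. The same library also had the best Ins1 rank, 6923. No Ins2 peak reached a −log10 q of at least 2. The Sst peak thus went against the label of beta replicate 1, and the tests without this library are given beside the calls below. Among other cells, 6 acinar genes had at most 2 TSS peaks in any library and 0 at a −log10 q of at least 2. The 5 endothelial genes had 0 to 1, the 5 immune genes 0 to 2 (0 at a −log10 q of at least 2), the 5 duct genes 1 to 3, and Ppy had none in any library.

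Of the 10 clock genes, 8 had a TSS peak in all 7 libraries, against 41.5% of protein-coding genes, and 7 had one of −log10 q of at least 2 in all 7, against 31.1%. The exceptions to the first count were Npas2 and Nr1d1, and Per1 joined them in the second. TSS peak ranks differed between the 3 cell types in an exact Kruskal-Wallis permutation test, at an unadjusted p of at most 0.05, for 2 of the 10 genes, Npas2 and Cry1. The background was 10.2% of the 14924 genes tested. No gene passed the Benjamini-Hochberg adjustment over all genes, where the smallest adjusted p was 0.461 and the smallest exact p that this design gives without ties is 0.0286. The call for Npas2 was lost when the TSS window was widened to 3 kb (p = 0.895, exact test), and the call for Cry1 was lost when peaks were ranked by fold enrichment (p = 0.524, exact test). Without beta replicate 1 the exact p was 0.0667 for Npas2 and 0.2 for Cry1, in a design whose smallest p is then 0.0667.

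**Figure D1:**
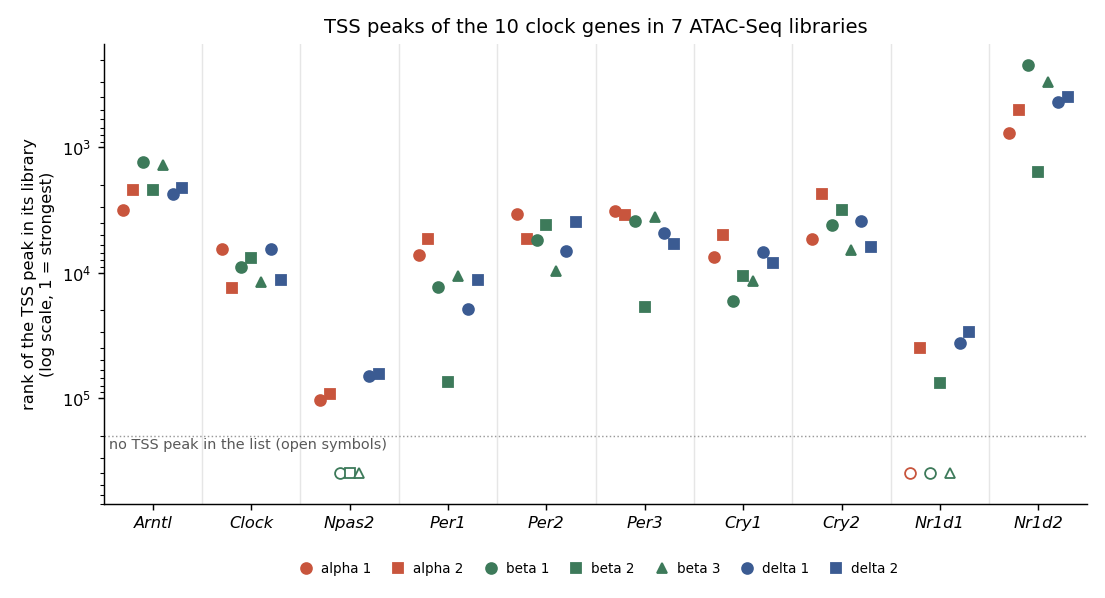
Rank of the strongest peak within 1 kb of the annotated TSS of each clock gene (log axis, 1 = strongest in the library, plotted upward), with 1 symbol per library coloured by cell type and open symbols where the list holds no TSS peak. Nr1d2 sits at the top with ranks of 221 to 1578, and Npas2 and Nr1d1 lack a TSS peak in 3 libraries each.

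Among the activators, Arntl had strong TSS peaks in every library. They ranked 3147 and 2181 in alpha, 1323, 2194, and 1390 in beta, and 2381 and 2129 in delta cells. The fold enrichment over the local background was 13.2 ± 0.01 (SD, n = 2) in alpha, 13.4 ± 2.71 (SD, n = 3) in beta, and 14.9 ± 0.842 (SD, n = 2) in delta cells, with beta libraries overlapping both other types and delta above alpha libraries. The rank test gave p = 0.419, and p = 0.0286 when peaks were ranked by fold enrichment (exact test). Of the settings of this rank test, only that one called Arntl. By the median of its ranks, Arntl stood ahead of all but 11.7% of the 12730 genes with a peak in at least 4 libraries. Of the 10 regions found in at least 2 libraries at its locus, on chr7:113197465-113324126, only the one at the TSS was present in all 7. The strongest of the others found in at least 4 libraries, 13587 bp into the gene in an intron, reached a −log10 q of at least 2 in both alpha and both delta libraries, with 2.16, 3.39, 4.14, and 3.21. In beta cells it was listed in replicate 1 only, at a −log10 q of 0.0774.

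Clock, which encodes the usual partner of BMAL1, ranked 6501 and 13159 in alpha, 8976, 7589, and 11982 in beta, and 6440 and 11526 in delta cells (p = 0.8, exact permutation test). Its TSS region, chr5:76303673-76305222, held 2 places of highest signal. The summit of the strongest peak lay between −102 and 10 bp from the 5′ end in both alpha libraries and in beta replicates 1 and 2. It lay 768 to 829 bp downstream in both delta libraries and in beta replicate 3, all 3 from lane 7, as was beta replicate 2. An intronic region 71726 bp into the gene was present in both alpha libraries at a −log10 q of 3.3 and 2.03 and in no beta or delta library. Another intronic region at 15278 bp reached 2.16 and 8.29 in the alpha libraries, was listed in beta replicate 1 at 0.0774, and was not found in delta cells. Among regions of at least 4 libraries, the strongest away from the TSS by median rank, at 23769 bp, was found in 5 libraries, with a −log10 q of at least 2 in both alpha libraries and beta replicate 2.

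Npas2, the relative of Clock, had no TSS peak of −log10 q of at least 2 in any library. Weak peaks had their summits at −929 and −915 bp from the 5′ end in the alpha libraries (ranks 103602 and 92950) and at 431 and 256 bp in the delta libraries (ranks 67067 and 64732), and no beta library had any. The test of the ranks gave an exact p of 0.00952 (adjusted p = 0.461), so that the call joined 2 different weak regions. The region that was open in every cell type lay in an intron 3191 bp from the 5′ end, at chr1:39196198-39197167. It ranked 16342 and 13494 in alpha, 11844, 7375, and 16628 in beta, and 15243 and 19384 in delta cells, and its −log10 q was 4.43 to 11.5. A region 67411 bp into the gene, also intronic, was found in 6 libraries, with a −log10 q of at least 2 in beta replicates 1 and 2 and in alpha replicate 2, and delta replicate 2 lacked it. The region 147161 bp into the gene stood at another annotated start, carried an E-box under its summit, and was found in every library other than beta replicate 2.

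The repressor genes Per1, Per2, and Per3 encode the PERIOD proteins. Per1 was the most variable of them at its 5′ end. Its TSS peak ranked 7207 and 5404 in alpha, 12926, 74059, and 10633 in beta, and 19495 and 11543 in delta cells. Fold enrichment was 9.98 ± 1.13 (SD, n = 2) in alpha, 5.15 ± 2.07 (SD, n = 3) in beta, and 6.82 ± 1.33 (SD, n = 2) in delta cells, and neither the ranks (p = 0.219, exact test) nor the fold values (p = 0.105, exact test) passed the threshold. Both alpha libraries stood above all others. Beta replicate 2 was the lowest, at a −log10 q of 1.07. An inner start of Per1, 3602 bp downstream at chr11:69098649-69099028, was open in 6 libraries and at a −log10 q of at least 2 in 5. Its −log10 q was 4.01 and 12.2 in alpha, 5.77 in beta replicate 2, 1.59 in beta replicate 3, and 10.8 and 8.54 in delta cells, and beta replicate 1 lacked it. Beta replicate 2, weakest at the 5′ end, ranked this inner start highest of all libraries, at 10617, against 12814 to 39926.

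Per2 showed no such spread at its start. The TSS peak ranked 3435 and 5416 in alpha, 5499, 4177, and 9775 in beta, and 6723 and 3981 in delta cells (p = 0.524, exact permutation test), with a −log10 q of 8.98 to 28.8. A separate region 978 bp downstream, at chr1:91458184-91458527, was listed in both alpha and both delta libraries and in no beta library. Its −log10 q was 4.58 and 6.72 in alpha and 3.31 and 1.93 in delta cells. It was the only region of the 10 loci with this pattern, which 1.43% of the 133698 regions of at least 2 libraries share genome-wide. A region 16426 bp into the gene was found in the delta libraries alone, at a −log10 q of at least 2 in replicate 1 only. Per2 also had 1 of the denser loci, with 17.4 regions of at least 2 libraries per 100 kb, as against a median of 6.56 over all protein-coding genes.

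Per3 ranked 3226 and 3468 in alpha, 3856, 18922, and 3624 in beta, and 4858 and 5903 in delta cells at its TSS (p = 0.181, exact test). The weak library was again beta replicate 2, with a fold enrichment of 4.24 where the other 6 libraries had 9.42 to 14.5. The locus was otherwise sparse, with 3 regions of at least 2 libraries over 61014 bp. One of these was found in delta cells alone. It lay beyond the 3′ end, 43709 bp from the TSS at chr4:151000760-151001094, with a −log10 q of 2.98 and 7.59 in the 2 delta libraries and no peak in the 5 alpha and beta libraries. The only other gene start in the locus is that of Uts2, which encodes the peptide urotensin 2, 47568 bp from the Per3 TSS.

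Cry1 and Cry2 encode the cryptochromes, which block the activators directly. The Cry1 TSS peak ranked 7518 and 5059 in alpha, 16819, 10617, and 11637 in beta, and 6851 and 8333 in delta cells, so that each of the 4 alpha and delta libraries stood above each of the 3 beta libraries (p = 0.0476, exact permutation test, adjusted p = 0.461). Fold enrichment was 9.79 ± 0.9 (SD, n = 2) in alpha, 5.93 ± 1.27 (SD, n = 3) in beta, and 9.45 ± 1.41 (SD, n = 2) in delta cells (p = 0.0667, exact test). By lane, where lane 6 holds a single beta library, the separation above fixes the order. In lane 6, beta replicate 1 ranked 16819 and the alpha libraries 5059 and 7518, and in lane 7 the beta libraries ranked 10617 and 11637 and the delta libraries 6851 and 8333. A short region 1191 bp downstream was found in alpha replicate 1 and both delta libraries, at a −log10 q of 3.67, 3.04, and 2.21, and in no beta library. An intronic region at 23108 bp reached 3.3 and 3.15 in alpha and 4.14 and 6.84 in delta cells, and was listed in beta cells only at 0.0774 in replicate 1.

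The Cry2 TSS peak ranked 5377 and 2381 in alpha, 4190, 3190, and 6596 in beta, and 3855 and 6249 in delta cells (p = 0.8, exact permutation test). The summits fell within 37 bp of each other, between −130 and −93 bp. The rest of the locus differed in count. At a −log10 q of at least 2, alpha libraries had 5 and 9 peaks, delta libraries 8 and 7, and beta libraries 1, 1, and 3, so that beta cells did not overlap the others. Divided by the length of each list, this was 1.4 ± 0.618 (SD, n = 2), 1.69 ± 0.015 (SD, n = 2), and 0.495 ± 0.256 (SD, n = 3) per 10000 peaks, and the test did not pass the threshold (p = 0.0667, exact test). With the 50000 strongest peaks of each list the exact test gave p = 0.267. Every deposited peak gave p = 0.619, and the gene body without its flanks p = 0.267, by the same exact test. The share of all genes whose beta libraries stand apart in this way is not given here. Among the regions of the Cry2 locus were a pair in exons of the annotated gene, 8444 and 8895 bp from the TSS. Each had a −log10 q of at least 2 in 5 libraries, and the first carried a CRE.

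Nr1d2, which encodes REV-ERBβ, had the strongest TSS peak of the 10 genes in each library. It ranked 774 and 509 in alpha, 221, 1578, and 299 in beta, and 438 and 398 in delta cells (p = 0.619, exact permutation test), with a −log10 q of 21.8 to 85.4. Only 2.47% of genes had a lower median rank. Its summits spanned 39 bp. The peak was 1386 bp wide in alpha replicate 1, 1433 bp in alpha replicate 2, and 1434 bp in delta replicate 2, and 684 to 756 bp in the other 4 libraries. A region in the last part of the gene, 34614 bp from the TSS and in an exon, ranked 5354 in delta replicate 2, 18865 in delta replicate 1, 18632 in beta replicate 1, and 19993 in alpha replicate 2, and was weak or missing in the other 3 libraries.

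Nr1d1, which encodes REV-ERBα, had its main open region inside the gene rather than at the annotated 5′ end. At the 5′ end a peak was listed in 4 libraries, with ranks of 39809 in alpha replicate 2, 75666 in beta replicate 2, 36732 in delta replicate 1, and 29613 in delta replicate 2 (p = 0.114, exact test). The intronic region 1370 bp downstream, whose sequence with 2 E-boxes is printed above, was present in all 7 libraries. Its −log10 q was 13.4 and 20.2 in alpha, 4.57, 1.82, and 2.48 in beta, and 6.9 and 7.65 in delta cells. Fold enrichment there was 8.62 and 9.28 in alpha, 5.56, 3.57, and 4.12 in beta, and 6.13 and 6.7 in delta cells, so each beta library was below each other library. The share of all regions with such a separation is not given here. Ranks overlapped, since beta replicate 1 ranked it 11778 and alpha and delta libraries 7477 to 22228. A further intronic region at 2273 bp, also with an E-box, was found in both alpha libraries, beta replicate 2, and delta replicate 1, and one upstream of the gene at −8181 bp, again with an E-box, in 6 libraries.

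**Figure D2:**
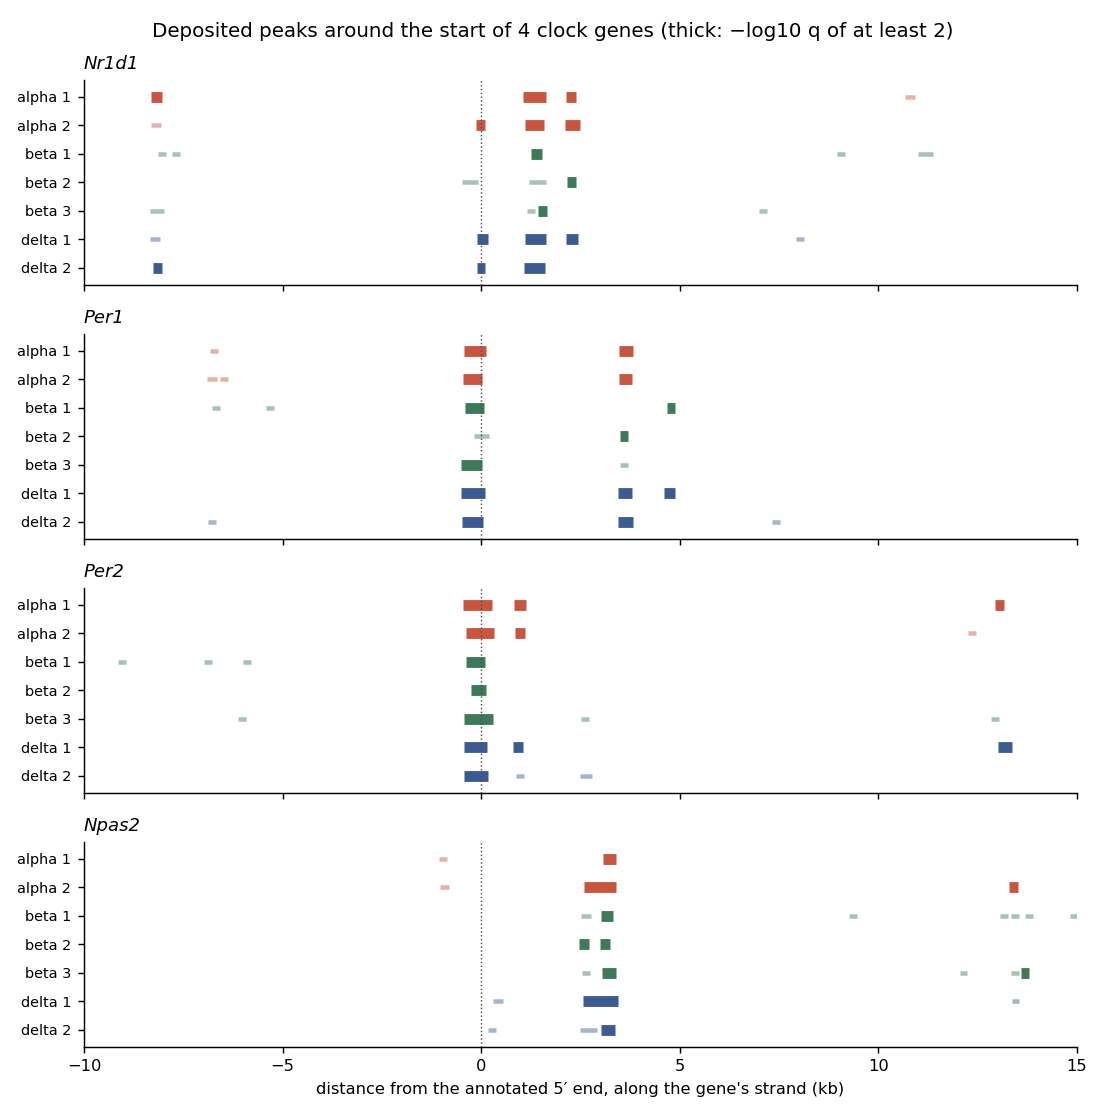
Peaks from 10 kb before to 15 kb after the annotated 5′ end (0, dotted line) of 4 clock genes, 1 row per library, thick where the −log10 q is at least 2 and thin where it is lower. Nr1d1 and Npas2 have their shared region inside the gene, with summits at 1370 and 3191 bp, Per1 opens at its 5′ end and at an inner start, and Per2 has a region near 1 kb in alpha and delta cells and not in beta cells.

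The number of peaks at each locus was compared between cell types, at a −log10 q of at least 2 and per 10000 such peaks of the library. Of the 10 loci, 2 differed at an unadjusted p of at most 0.05, Nr1d1 and Npas2, against a background of 15.2% of 17621 genes. The smallest adjusted p over all genes was 0.222, and both had it. Nr1d1 had 3 and 3 peaks in alpha, 1, 1, and 1 in beta, and 3 and 3 in delta cells, or 0.594 ± 0.025 (SD, n = 2), 0.32 ± 0.0621 (SD, n = 3), and 0.679 ± 0.058 (SD, n = 2) per 10000 (p = 0.0286, exact permutation test). The raw and the scaled values both put every beta library below the others. Npas2 went the other way only after scaling. Its libraries had 4 and 4 peaks in alpha, 3, 5, and 4 in beta, and 3 and 3 in delta cells, which became 0.792 ± 0.0333 (SD, n = 2), 1.26 ± 0.268 (SD, n = 3), and 0.679 ± 0.058 (SD, n = 2) per 10000 (p = 0.0286, exact permutation test). Both calls were lost when the 50000 strongest peaks were taken from each list, at p = 0.0667 for Nr1d1 and p = 0.657 for Npas2 by the exact test. Every deposited peak gave p = 0.381 and p = 0.8, and the gene body without its flanks gave p = 0.238 for Nr1d1, by the same exact test. Without beta replicate 1, both had p = 0.0667, the smallest that the exact test then allows. Over the 10 loci together there were 7.34 ± 0.868 (SD, n = 2) such peaks per 10000 in alpha, 6.59 ± 0.354 (SD, n = 3) in beta, and 7.78 ± 0.187 (SD, n = 2) in delta cells, and alpha overlapped both of the others.

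**Figure D3:**
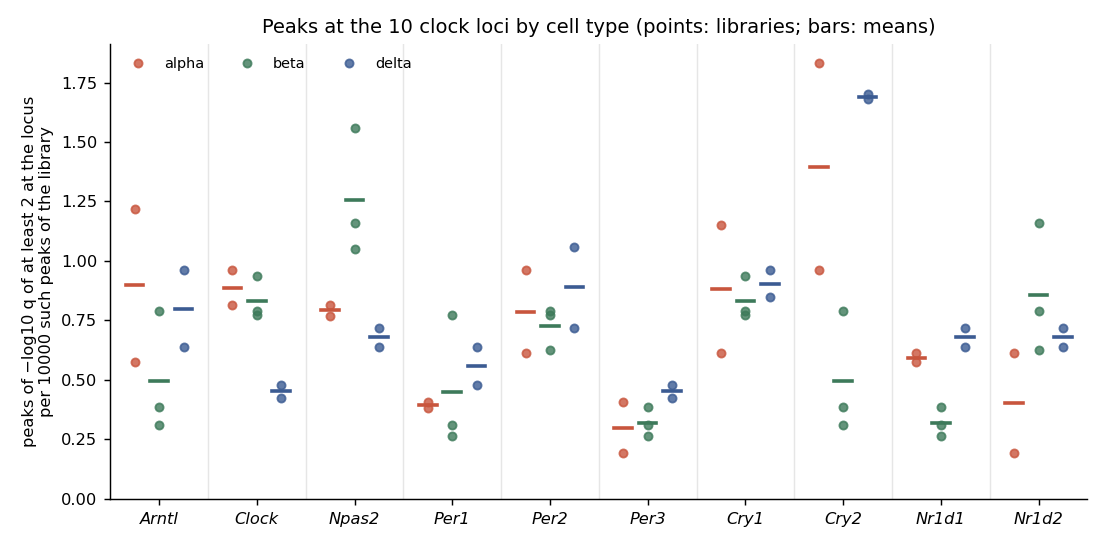
Peaks of −log10 q of at least 2 at each clock locus per 10000 such peaks of the library, as points for libraries and bars for the mean of each cell type. Beta cells lie below alpha and delta cells at Nr1d1 and Cry2 and above them at Npas2. The test at Cry2 did not pass the threshold.

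When overlapping peaks were merged across libraries, the 10 loci held 239 regions, of which 76 were found in at least 2 libraries, 15 in all 7, and 11 in all 7 at a −log10 q of at least 2. Of the 163 regions found in a single library, 87 were in beta replicate 1, the list with the most weak peaks. The 76 regions were made up of 33 in introns, 12 at the annotated TSS, 8 in exons, 8 in the downstream flank, 7 at other starts of the same gene, 6 at the TSS of a neighbouring gene, and 2 in the upstream flank. All 7 libraries shared 8 of the 12 TSS regions and 2 of the 33 intronic ones. Regions were densest at Nr1d1 (18.2 per 100 kb), Cry2 (17.9), Per2 (17.4), Per1 (17.3), and Nr1d2 (16.3), each above at least 95.2% of protein-coding genes, and sparsest at Clock (4.35) and Per3 (4.92).

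Regions were then sorted by cell type. A region counts here as selective for the former of a pair of types where it appeared in 2 or more libraries of the former and was missing from all of the latter. Among the 76 regions, 4 were found in alpha and not in beta cells (5.41% of all regions genome-wide) and 6 in beta and not in alpha cells (14.8%). Likewise 4 were found in alpha and not in delta (5.38%), 3 in delta and not in alpha (5.13%), 8 in beta and not in delta (13.2%), and 5 in delta and not in beta cells (4.85%). As shares of the 76 these were 5.26%, 7.89%, 5.26%, 3.95%, 10.5%, and 6.58%. Every region selective for beta cells rested on beta replicate 1, and none reached a −log10 q of at least 2 in 2 beta libraries. Without that library 0 regions were selective for beta cells in either comparison, and 10 were found in alpha and 8 in delta cells but not in beta cells. With fewer beta libraries, absence from all of them is easier to meet at any locus. The genome-wide shares without that library were not computed, so these counts have no background.

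The balance changed when only peaks of −log10 q of at least 2 entered, which left 41 regions of at least 2 libraries. Then 7 were found in alpha and not in beta cells (background 14.9%) and 0 in beta and not in alpha cells (5.63%). Between delta and beta cells, 9 were found in delta and not in beta cells (13.5%), some of them also among the 7 above, and 1 in beta and not in delta cells (4.15%), an intronic region of Npas2. Between alpha and delta cells the counts were 3 (8.32%) and 1 (7.9%). The shares of the 41 were 17.1% and 0.0% for alpha and beta, 22% and 2.44% for delta and beta, and 7.32% and 2.44% for alpha and delta. Genome-wide, regions missing from beta cells were also the more frequent at this threshold. The 3 regions found in alpha and not in delta cells were all in Clock introns.

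**Figure D4:**
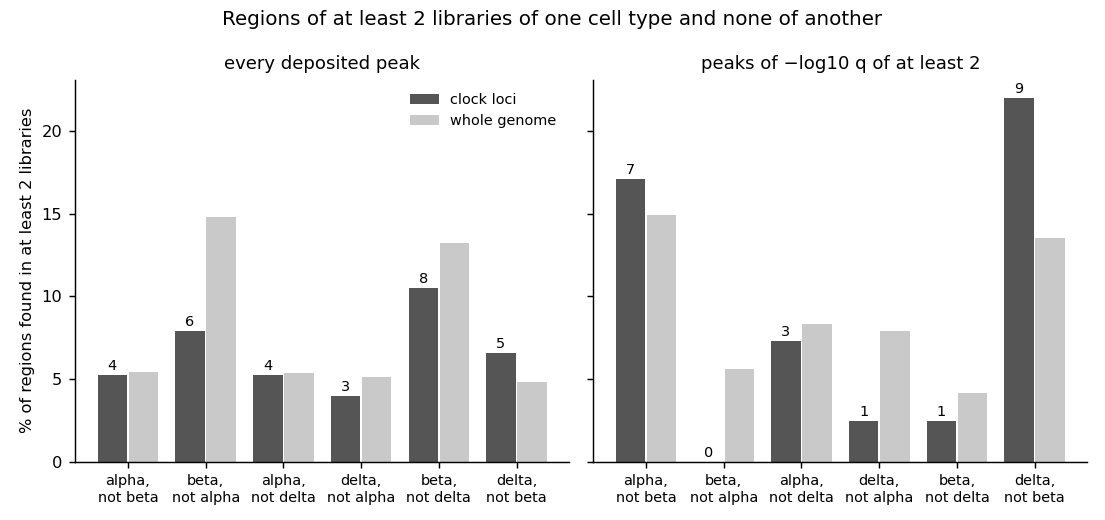
Share of regions of at least 2 libraries that were selective for the cell type named first over the type named after it, at the clock loci (dark, with the count above) and genome-wide (light), with every deposited peak on the left and with peaks of −log10 q of at least 2 on the right. On the left the beta-selective bars are higher than those of the opposite direction, and on the right the alpha-selective and delta-selective bars are.

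The 18 further clock genes comprised ROR receptors, D-box factors, DEC repressors, casein kinases, factors of clock protein turnover, and Arntl2, Ciart, and Timeless. Of these, 12 had a TSS peak in all 7 libraries (66.7%, against 41.5% of protein-coding genes). One of −log10 q of at least 2 in all 7 was found for 8 (44.4%, against 31.1%). None lacked a TSS peak in every library. The rank test called 0 of the 18 at an unadjusted exact p of at most 0.05, against 10.2% of all genes tested. Among those of the best median rank were Rorb, which encodes a retinoid-related orphan receptor, and Fbxl21, which encodes an F-box protein that acts on cryptochromes. Rorb ranked 3375 and 4546 in alpha, 27208, 9720, and 2874 in beta, and 3246 and 1221 in delta cells (p = 0.362, exact test). Fbxl21 ranked 2087 to 5171 over all 7 libraries (p = 0.105, exact test), a narrower range than that of Rorb.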

How the data were processed

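ATAC-Seq peaks of 2 alpha, 3 beta, and 2 delta cell libraries of mouse were used. Per the study's methods, the authors' single-end reads went through Trimmomatic for trimming, Bowtie2 for alignment to mm10, and Picard for duplicates. Blacklisted regions were removed, and MACS2 was run on every library by itself. Tool versions, the peak threshold, and any shift of reads for the transposase are not given in the sources used here, and the lowest −log10 p in each list was 2.01. Each deposited row holds a fold enrichment ratio over the local background, a −log10 p, a −log10 q, and a score that is 10 times the −log10 p. Read counts were not used here, so depth entered only through the length of each list, and many weak peaks are tied. The study's supplement lists uniquely mapped reads by replicate. They were fewer in each beta replicate that was kept than in either alpha replicate, and a delta replicate lay within the beta range. Its replicate names were not tied to these libraries, and the part of depth in any difference was not tested. In beta replicate 1, 378630 peaks share 1 value.

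Rows with the same coordinates were counted once. Peaks were ranked within a library by p and then by fold. TSSs came from GENCODE vM21, and the reference genome GRCm38.p6 has the chromosome lengths of mm10. Tests were Kruskal-Wallis tests with exact permutation over 210 assignments of 7 libraries to cell types, adjusted by Benjamini-Hochberg over all genes, in Python 3.11.15 with numpy 2.4.6 and pandas 2.3.3, and were tested on simulated data. Merged regions share at least 1 bp. The named genes were the 10 members, further clock genes that were called, lacked a TSS peak, or were among the 3 of best median rank, regions selective at a −log10 q of at least 2 in 2 libraries of a type, and the strongest region away from the TSS of each locus among regions of at least 4 libraries. Other regions were named after their values were seen. The values of 1 gene that this rule names are not reported here. The members and gene lists were chosen with earlier results of these data known. Amy2b, of 7 acinar markers, was not found in the annotation by that name. The alternatives tried were a −log10 q of at least 2 or every peak, the 50000 peaks of lowest p, other TSS windows, ranks by fold, no flank, a stricter overlap, and each library left out.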

Additional observations from a re-analysis of the deposited data

How the results depend on the processing

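Of 10 clock genes, 2 were called by the TSS peak rank test. The count was 1 with peaks of −log10 q of at least 2, with the 50000 peaks of lowest p per list, with a TSS window of 3 kb, with any transcript start, and with the fold enrichment itself in place of its rank, an alternative chosen after seeing the data. The shares called over all genes tested were, in turn, 11.4%, 10.7%, 9.43%, 9.97%, and 19.5%, against 10.2% in the main test. Ranking by fold enrichment gave 2 (11.1% of all genes), but different genes, as Cry1 was lost and Arntl gained (p = 0.0286, exact test). Npas2 lost its call with either other TSS window (p = 0.895 and 0.219, exact test), and Cry1 with both fold settings (p = 0.524 and 0.0667, exact test). The locus peak count test called 2 (15.2% of all genes). It called 1 with every deposited peak (5.27%), with 50000 peaks per list (11.2%), and without the flank (22.6%). That call was a different gene each time, namely Arntl with every deposited peak and Clock with 50000 peaks, both gained (p = 0.0286, exact test), and Npas2 without the flank. With the replicate number as a block, each test called 0, but the smallest p was then 0.0556, so no call was possible. The deviations of same-numbered libraries correlated between −0.03 and 0.01 over 9112 genes, so the numbers gave no sign of a pairing. Only same-numbered libraries were compared, with few libraries per type, so this does not show whether libraries share animals. Leaving out 1 library gave 0 to 1 for the rank test and 0 to 0 for the count test, where at most 0.853% and 2.21% of all genes were called. With a beta library out no call was possible, as the smallest p was 0.0667, and with an alpha or delta library out it was 0.1 without ties. The 1 rank call left then was Npas2 (p = 0.0333, exact test), which is reached only through the tie of its absent beta peaks and shows nothing of its stability. The number of genes with a TSS peak in all libraries was 8, 7 to 10 under the alternatives, and 8 with any 1 library left out.

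Regions of at least 2 libraries numbered 76, but 41 at a −log10 q of at least 2, 43 with 50000 peaks per list, and 54 to 74 without 1 library. The 10 selective regions of alpha against beta became 6 without the flank, 4 when every replicate was required, and 6 to 12 without 1 library (6 without beta replicate 3). The 7 of alpha against delta became 4 at a −log10 q of at least 2 and were 7 to 7 without 1 library. The 13 of beta against delta became 5 when every replicate was required and 8 to 16 without 1 library, with 8 without beta replicate 1 and also without beta replicate 3. No count of selective regions was computed for a pair of types of which one was left with 1 library. Genome-wide shares of selective regions were computed only with every deposited peak and at a −log10 q of at least 2. The cause of these changes was not tested. Some alternatives use fewer peaks or libraries, and others apply another rule to the same lists. Of 248 gene tests under alternatives, 208 kept their side of the threshold, 37 lost a call, and 3 gained one. Only the 2 genes called by each main test could lose a call, so all 37 losses fell on these. Under most alternatives these calls were lost, some of them in settings where no call was possible. Most of the 208 belong to genes that the main tests did not call, so they do not show that the calls were stable. The length of the lists limits the absence of weak peaks.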

Other observations

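Neighbouring genes supplied several of the strongest regions of the clock loci. The TSS of Rpl31, which encodes a ribosomal protein and lies 174111 bp from that of Npas2, had a peak in all 7 libraries with ranks of 2737 and 2345 in alpha, 3984, 2015, and 1691 in beta, and 3753 and 4394 in delta cells. The TSS of Mterf2, which encodes a mitochondrial transcription termination factor, beyond Cry1, ranked 1489 and 545 in alpha, 4013, 3269, and 4815 in beta, and 1251 and 2462 in delta cells. Each alpha and delta library stood above each beta library there, as at the Cry1 TSS. How common this order is over all genes is not given here. The TSS of Hes6, which encodes a HES family repressor, beyond Per2, ranked 7077 and 5022 in alpha, 12346, 9419, and 3660 in beta, and 4759 and 11940 in delta cells, so the types overlapped.

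Some neighbours were weak. The TSS of Mapk8ip1, which encodes a JNK scaffold protein, beyond Cry2, ranked 28567 and 21992 in alpha and 46069 and 39536 in delta cells, and among beta libraries was listed only in replicate 2, at 65949. The region by the start of Vamp2, which encodes a synaptic vesicle protein of the exocytosis machinery and lies upstream of Per1, was listed in 4 libraries and reached a −log10 q of at least 2 in none. Regions at neighbouring starts count among the 76 regions, since the rule takes 10 kb on either side of each gene.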
